A study of Bos grunniens with 3 samples.

Results

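The WNT pathway genes of the white yak hair follicle were looked up in the gene list by symbol: WNT ligands, FZD receptors, the SFRP and DKK families, LGR4 to LGR6, the R-spondins, AXIN1 and AXIN2, the TCF7 family, and *LEF1*, *WIF1*, *LRP5*, *LRP6*, *CTNNB1*, *APC*, *NOTUM*, *ZNRF3* and *RNF43*. The 53 genes found, among 26924 rows of which 15765 carry a symbol, are the members described here, and *LGR6*, *LRP5*, *APC*, *RNF43* and *FZD3* are not analysed here. They were 19 ligands, 10 receptors, 10 secreted inhibitors, 7 genes of the R-spondin axis, 3 cytoplasmic genes and 4 transcription factors. Genes were taken by name and no measured value entered the rule, which was drawn up with earlier results of these data known. Single cells came from hair follicles that were pulled from scapular skin of healthy Tianzhu white yak of about 2 years, freed with dispase and then trypsin. There was 1 library (10x Genomics, single cell 3′) for each stage of the hair cycle: anagen, when the hair grows, catagen, when the lower follicle regresses, and telogen, when it rests. The protocol text of the catagen library names anagen, so its stage rests on its title and stage label. The published study of these follicles covers anagen and catagen and does not describe the telogen sample. The number of animals behind each library is not given in the sources used here, and no label names a treatment or a genotype.

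WNT proteins are secreted lipid-modified ligands that bind Frizzled receptors and the coreceptors LRP5 and LRP6. In the canonical branch this stops the destruction complex, in which AXIN holds β-catenin (*CTNNB1*) for degradation, so that β-catenin enters the nucleus and acts with LEF1 and the TCF7 family. R-spondins bind LGR receptors and remove ZNRF3 and RNF43, which otherwise take Frizzled off the cell surface, while SFRP, WIF1, DKK and NOTUM proteins act outside the cell to hold the signal down. In the follicle the pathway is known for starting new growth from the bulge and hair germ and for the differentiation of the hair shaft from the matrix.

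The libraries held 51647865 to 103511775 unique molecular identifiers (UMIs, each counting 1 captured RNA molecule) in 12000 to 14573 cells. A floor of 200 detected genes per cell left 11987 anagen, 12062 catagen and 14502 telogen cells, with medians of 3350 to 5584 UMIs per cell. The smallest kept cell had 2404 UMIs in anagen and 500 in the other libraries, and 132 cell barcodes occurred in more than 1 library. Levels are given in CPM, the usual depth-scaled unit, from the UMIs of a gene over all UMIs of the library or of a cluster of cells within it. Intervals are exact 95% intervals and cover counting error only, since 1 library per stage leaves the spread between animals unknown and allows no p-value. In UMIs summed over a library, fewer cells of a type and less RNA per cell cannot be told apart. A 3′ count depends on how well the end of each transcript is annotated, so levels were compared between cells and stages and not between genes.

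Of the 53 members, 35 had at least 100 UMIs over the 3 libraries and were compared, 12 had fewer and 6 had none. The 12 were *WNT2*, *WNT2B*, *WNT7A*, *WNT9A*, *FZD5*, *FZD8*, *FZD9*, *DKK1*, *DKK2*, *SFRP4*, *RSPO2* and *RSPO3*. The 6 listed at 0 in every library were *WNT1*, *WNT8A*, *WNT8B*, *WNT9B*, *DKK4* and *RSPO4*. Of the ligands 11 of 19 were compared, of the receptors 7 of 10, of the R-spondin axis 4 of 7, of the inhibitors 6 of 10, and all of the 3 cytoplasmic genes and 4 transcription factors. The 17 members described with full values were set by level (at least 20 CPM in a library, or at least 50 CPM in a named cluster of at least 50 cells), with *CTNNB1*, *LEF1*, *AXIN2* and *LGR5* kept at any level. Members below that level for which values are given (*RSPO1*, *RSPO3*, *DKK2*, *DKK3*, *WNT3*, *WNT3A*, *WNT4*, *WNT5A*, *WNT5B*, *WNT10B*, *WNT16*, *FZD1*, *FZD2*, *FZD4*, *FZD6*, *FZD7*, *TCF7*, *SFRP2*, *SFRP5* and *ZNRF3*) were chosen after their values had been seen. No yak sequence of the members was at hand, so none is printed.

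**Figure D1:**
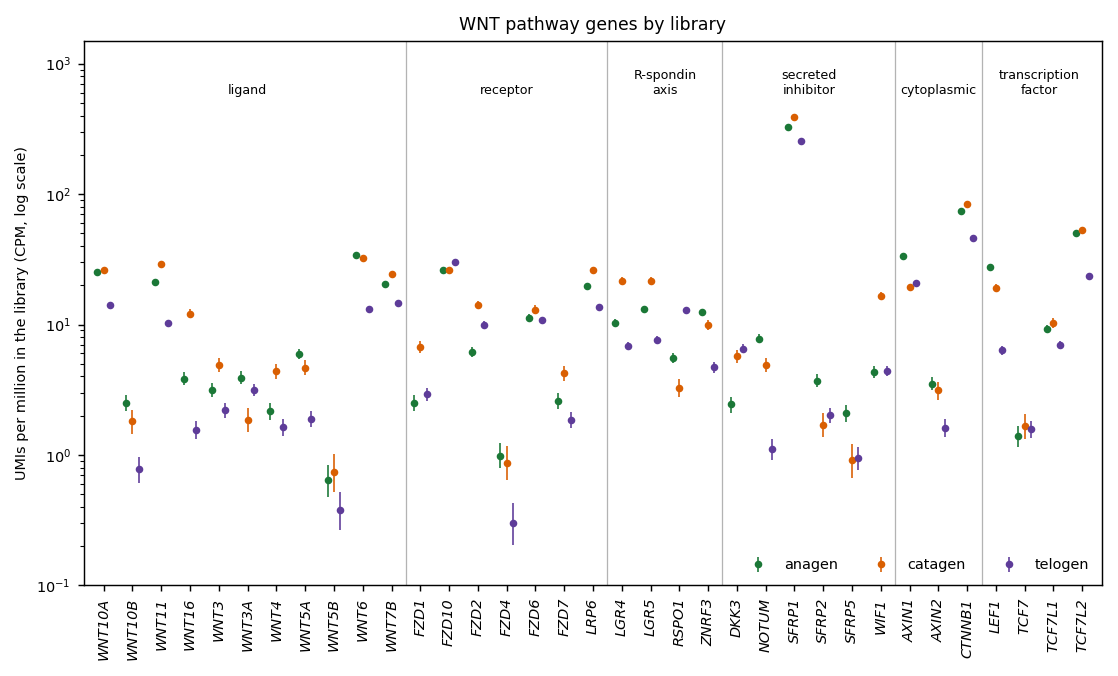
Level of the 35 members with at least 100 UMIs, as CPM of all kept cells of the anagen, catagen and telogen library on a log axis. Points are single libraries and bars are exact 95% Poisson intervals of the counts. *LEF1* is at 27.5 CPM in anagen and 6.32 CPM in telogen, while *RSPO1* is highest in telogen at 13 CPM.

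Across whole libraries the members were lower in telogen than in the other stages more often than higher. Stage ratios are log2 ratios of CPM minus the median log2 ratio of all genes tested, which was 0.16 for catagen over anagen, -0.18 for telogen over anagen and -0.36 for telogen over catagen. For telogen over anagen, 26 of 34 members tested lay below the median gene and the members' median was -0.45. Of them 8 were at least 2-fold lower against 7.12% of all 11332 genes tested, and 2 were at least 2-fold higher against 5.45%. The 8 were *LEF1*, *NOTUM*, *WNT5A*, *WNT6*, *WNT10B*, *WNT16*, *FZD4* and *ZNRF3*, and the 2 were *DKK3* and *RSPO1*. For telogen over catagen, 24 of 33 lay below the median gene, with a median of -0.59. Here 8 were at least 2-fold lower against 8.34% of all 11235 genes tested, and 2 were higher against 9.58%. The 8 were *LEF1*, *LGR4*, *LGR5*, *NOTUM*, *WIF1*, *WNT4*, *WNT11* and *WNT16*, and the 2 were *RSPO1* and *WNT3A*. Catagen over anagen was balanced, with a members' median of 0.01. In it 5 of 34 members were at least 2-fold higher against 5.63% of all 11163 genes tested (*DKK3*, *FZD1*, *FZD2*, *WIF1* and *WNT16*), and 3 were lower against 5.89% (*SFRP2*, *SFRP5* and *WNT3A*). The 3 ratios share libraries with each other, so they are not independent. Without centring on the median gene the split for telogen over catagen was 1 higher and 16 lower, with the mean over cells it was 1 and 10, and with median-of-ratios scaling that of catagen over anagen was 4 and 4. With clusters weighted alike, as described further on, the split for telogen over catagen was 2 higher and 4 lower, and *LEF1*, *LGR5*, *WIF1* and *WNT11* were no longer 2-fold lower. Shares of all genes under these alternatives are not given here to set beside the counts. Without centring the median gene itself lies at -0.36 for telogen over catagen, so the 16 lower include that shift.

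To place the members in the follicle, cells of the 3 libraries were clustered together with all members left out of the genes used. Of 25 clusters, 15 could be named from marker genes, always as "-like", and 23 had at least 30 cells in every library. A member was taken as raised in a cluster where its CPM, with 1 CPM added, was at least 2-fold that of all other cells in each of the 3 libraries. By this measure 26 of the 35 members were raised in at least 1 cluster, against 32.5% of all 11971 genes with as many UMIs. The cluster of highest level was the same in all 3 libraries for 14 of 35 members, against 22.1% of all genes. By role, 10 of 11 ligands, 6 of 7 receptors, 5 of 6 inhibitors, 3 of 4 transcription factors and 2 of 4 genes of the R-spondin axis were raised somewhere, and 0 of 3 cytoplasmic genes.

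**Figure D2:**
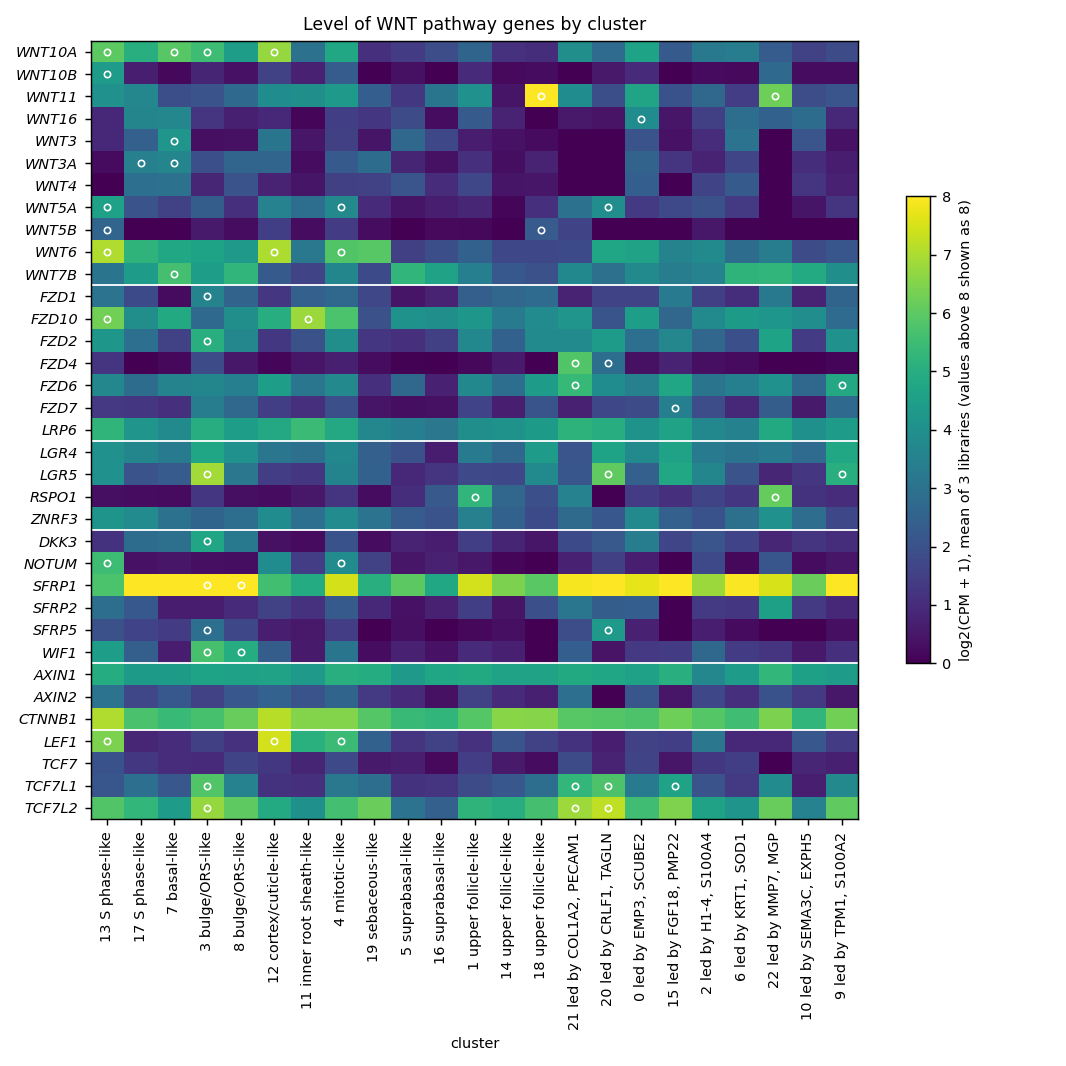
Level of the 35 members (rows, by role, with white lines between roles) in 23 clusters (columns), as the mean over the 3 libraries of log2(CPM + 1), with white circles where a member was raised in each library. The circles gather in a few columns, among them cluster 3 with 10 members and cluster 13 with 8.

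The raised members fell into 2 main sets of clusters. Cluster 3 was bulge and outer root sheath-like by 7 of 11 detected markers, among them *SPARC*, *LHX2* and *SOX9* but not *PTHLH*, *NGFR* or *NFATC1*. It had 10 raised members against 3.58% of all genes: *DKK3*, *FZD1*, *FZD2*, *LGR5*, *SFRP1*, *SFRP5*, *TCF7L1*, *TCF7L2*, *WIF1* and *WNT10A*. The second cluster of that name, cluster 8, was led by *PTHLH* and *SEMA3E*. It had 6 of 11 markers raised, without *SOX9*, and shared only *SPARC*, *LHX2* and *ENPP1* of them with cluster 3. Cluster 8 had 2 raised members (*SFRP1* and *WIF1*) against 1.23%. The other set was cluster 13, S phase-like by *MCM2*, *PCNA* and *UHRF1* and led by *DCN*, with 8 against 4.39% (*FZD10*, *LEF1*, *NOTUM*, *WNT5A*, *WNT5B*, *WNT6*, *WNT10A* and *WNT10B*). The mitotic-like cluster 4 had 4 of these (*LEF1*, *NOTUM*, *WNT5A* and *WNT6*) against 4.54%. The hair cortex and cuticle-like cluster 12, with *KRT85* and *KRT35*, had 3 (*LEF1*, *WNT6* and *WNT10A*) against 3.44%. Clusters 3 and 13 shared *WNT10A* only, but no share of all genes raised in both is given here to set beside it. The inner root sheath-like cluster 11 had *FZD10* alone, against 1.60%.

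Outside those sets other combinations were raised. The basal epidermis-like cluster 7 had *WNT3*, *WNT3A*, *WNT7B* and *WNT10A*, 4 ligands, against 1.16% of all genes. Cluster 18 was upper follicle-like by its markers, but its first leading gene was *KRT75*, a keratin of the companion layer, and it had *WNT5B* and *WNT11* against 2.69%. Cluster 1, upper follicle-like by *KRT79*, had *RSPO1* against 0.543%. The unnamed cluster 15, led by *FGF18* with *KRT75*, had *FZD7* and *TCF7L1* against 1.81%. It also had *LHX2*, at 443, 605 and 477 CPM in anagen, catagen and telogen. The unnamed cluster 20, with *TAGLN* and *ACTA2* but almost no *VIM* or *COL1A2* (0 to 4.41 CPM), had *FZD4*, *LGR5*, *SFRP5*, *TCF7L1*, *TCF7L2* and *WNT5A*, 6 members, against 4.03%. Of these, *LGR5*, *SFRP5*, *TCF7L1* and *TCF7L2* were also raised in cluster 3, and cluster 20 had *LHX2* at 297, 349 and 313 CPM. The share of all genes raised in both clusters is not given here. Cluster 20 held 83 anagen, 93 catagen and 37 telogen cells and 0.3% of telogen UMIs, so low levels there rest on few UMIs. The unnamed cluster 21 was taken as non-epithelial, with *VIM* at 1598 to 3401 CPM and markers of endothelium, fibroblasts and melanocytes together. It also had *KRT14* at 6168, 3258 and 7228 CPM in anagen, catagen and telogen, the source of which was not tested. Its make-up differed between libraries, with *COL1A2*, a collagen of fibroblasts, at 4992, 98.2 and 819 CPM in anagen, catagen and telogen and *PMEL*, a melanocyte gene, at 2.06, 2071 and 124 CPM, so levels there are not compared between stages. A second non-epithelial cluster, the immune-like cluster 23, had 18, 16 and 50 cells and was too small to be counted. Cluster 21 had 4 raised members (*FZD4*, *FZD6*, *TCF7L1* and *TCF7L2*) against 6.03%. Of the other clusters, the unnamed cluster 9 had *FZD6* and *LGR5* (1.5% of all genes), cluster 22 *RSPO1* and *WNT11* (2.83%), cluster 0 *WNT16* (0.652%) and the S phase-like cluster 17 *WNT3A* (1.41%).

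Among the ligands, *WNT6* was raised in clusters 4, 12 and 13 and *WNT10A* in clusters 3, 7, 12 and 13. These genes are neighbours in RefSeq's annotation of the yak assembly Bosgru_T2T1.0, 1 of 3 neighbouring pairs among the members. *WNT6* in cluster 12 was at 133 CPM in anagen, 148 CPM in catagen and 104 CPM in telogen. In cluster 13 *WNT6* was at 143, 154 and 103 CPM in the same order. In the mitotic-like cluster 4 it was at 84.4, 81.2 and 25.1 CPM. The telogen level was thus the lowest in each of these clusters, and farthest from the others in cluster 4. Set against the median gene of each cluster, the telogen over anagen ratio of *WNT6* was -0.15 (-0.36 to 0.07) in cluster 12, -0.23 (-0.52 to 0.05) in cluster 13 and -1.59 (-1.80 to -1.38) in cluster 4. Summed over the library, *WNT6* was at 34.4, 32.3 and 13.1 CPM, a telogen over anagen ratio of -1.22 (-1.31 to -1.12). Of the clusters that carry it, cluster 12 held 4.71% of anagen, 1.97% of catagen and 1.2% of telogen cells, which depended on the integration, as given further on. Cluster 4 held 12.2%, 4.19% and 5.02% of the cells in the same order, and cluster 13 held 3.47%, 2.93% and 0.848%.

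*WNT10A*, a ligand whose loss is known for sparse hair and missing teeth, was the more even of the pair. In cluster 12 it was at 107, 105 and 108 CPM in anagen, catagen and telogen, with intervals that overlap throughout. In the basal epidermis-like cluster 7 *WNT10A* was at 56.0, 73.8 and 49.6 CPM, and in the bulge and outer root sheath-like cluster 3 at 51.5, 54.1 and 31.2 CPM. It was under 3 CPM in each library in the suprabasal epidermis-like cluster 5, at 2.48, 1.33 and 1.16 CPM. Over whole libraries *WNT10A* was at 25.1, 26.3 and 14.1 CPM, a telogen over anagen ratio of -0.65 (-0.75 to -0.56).

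*WNT11*, a ligand of the β-catenin-independent branch, had the highest fold over other cells of any ligand compared, in cluster 18. It was at 415 CPM (381 to 451) in anagen, 549 CPM (514 to 586) in catagen and 142 CPM (126 to 160) in telogen there. Those levels are 26.4, 41.2 and 16.4 times the levels in all other cells, with 1 CPM added. *KRT75* in the same cells was at 8794, 7040 and 4168 CPM and *KRT14* at 11346, 12935 and 34390 CPM. The telogen cells of cluster 18 thus also differ in these keratins, and the part of that in the *WNT11* level was not tested. *KRT14* was highest in telogen in other clusters as well, among them cluster 7 at 26837, 26101 and 37896 CPM. Relative to the median gene, *WNT11* in cluster 18 was at -1.48 (-1.70 to -1.27) for telogen over anagen. After each cell was thinned to 1500 UMIs, the share of cluster 18 cells with a *WNT11* UMI was 33.8% of 148 anagen, 38.5% of 187 catagen and 12.8% of 125 telogen cells (exact intervals 26.2 to 42, 31.5 to 45.9 and 7.50 to 19.9). Not thinned, the shares were 44.6%, 46.6% and 20.3%. The thinned share in the suprabasal epidermis-like cluster 5, at the same depth, was 0.360% in anagen and 0 of 758 catagen and 0 of 627 telogen cells, which allows up to 0.396% and 0.478%. Cells below 1500 UMIs were left out, 17 catagen and 13 telogen cells of cluster 18.

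*WNT7B*, a ligand of epidermal keratinocytes, was raised in the basal epidermis-like cluster 7 alone, at 57.0 CPM in anagen, 53.5 CPM in catagen and 37.9 CPM in telogen. Its highest level was there in anagen and telogen, but in the unnamed cluster 22 in catagen. *WNT7B* was also found in the suprabasal cluster 5 at 34.2, 44.8 and 33.5 CPM. In the cortex and cuticle-like cluster 12, where *WNT6* was raised, *WNT7B* was at only 4.31, 3.49 and 3.73 CPM. The 2 were not apart in every cluster: in cluster 7 the catagen over anagen ratio of *WNT6* was 2.15 (1.76 to 2.55). Cluster 7 also had *WNT3* at 13.1, 28.2 and 12.8 CPM and *WNT3A*, a canonical ligand, at 15.7, 7.33 and 13 CPM. These 2 ligands lay on opposite sides of the median gene in catagen. Over whole libraries the catagen over anagen ratio was -1.24 (-1.58 to -0.91) for *WNT3A* and 0.48 (0.23 to 0.74) for *WNT3*. *WNT4*, raised in no cluster, was at 2.16, 4.41 and 1.62 CPM over whole libraries, with catagen highest.

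*WNT16* had the widest span between stages of the 11 ligands compared. Over whole libraries it was at 3.85 CPM (3.44 to 4.30) in anagen, 12.1 CPM (11.2 to 13.1) in catagen and 1.57 CPM (1.33 to 1.83) in telogen. Catagen was the highest library in the 3 clusters whose counts allowed a ratio. In cluster 0, unnamed and led by *EMP3* and *SCUBE2*, *WNT16* was at 10.9, 41.2 and 5.65 CPM, and in cluster 7 at 17.1, 32.1 and 2.65 CPM. Relative to the median gene of the cluster, catagen over anagen was 1.93 (1.57 to 2.31) in cluster 0, 1.09 (0.65 to 1.53) in cluster 7 and 2.42 (1.78 to 3.1) in cluster 6, which is led by *KRT1* and *SOD1*. *WNT5A* and *WNT10B* belonged with *WNT6* in cluster 13. *WNT10B*, a canonical ligand known from the onset of hair growth, was there at 25.4, 23.7 and 12.7 CPM, and *WNT5A*, mostly a β-catenin-independent ligand, at 34.4, 27.3 and 12.7 CPM. *WNT5B* was raised there and in cluster 18 from only 4 to 13 UMIs a library.

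Of the receptors, *FZD10* was highest in the inner root sheath-like cells, at a like level in each library. In cluster 11 it was at 106 CPM (97.5 to 115) in anagen, 114 CPM (100 to 129) in catagen and 114 CPM (102 to 128) in telogen. Within the cluster the telogen over anagen ratio was 0.22 (0.01 to 0.43). In cluster 13 *FZD10* was at 62.0, 82.0 and 89.9 CPM, and in cluster 3 it was low at 5.31, 5.45 and 6.04 CPM. The epidermis-like clusters differed more between stages. In the basal cluster 7 *FZD10* was at 12.7, 33.5 and 49.9 CPM, and in the suprabasal cluster 5 at 17.6, 6.30 and 35.6 CPM. Telogen was therefore the highest library in both, whereas catagen lay between the others in cluster 7 and below them in cluster 5.

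*LRP6*, the coreceptor of canonical signalling, was found in every named cluster that was compared and raised in none. Its highest level among the named clusters was in cluster 11 at 37.3, 50.2 and 41.2 CPM. Catagen over anagen was above the median gene in 12 of 12 clusters with at least 100 UMIs over the pair (0.16 to 0.58), and telogen over catagen was below it in 12 of 12 (-1.30 to -0.19). All clusters of a stage come from 1 library, so such counts of clusters, here and below, are not independent repeats. The share of all genes that lie on 1 side in every cluster is not given. Summed, *LRP6* was at 19.8, 26.2 and 13.6 CPM. *FZD1* and *FZD2*, 2 Frizzleds raised in cluster 3, were also highest in catagen: there *FZD1* was at 7.49, 20.9 and 8.45 CPM and *FZD2* at 28.7, 44.5 and 23.8 CPM. *FZD4*, which is known from vessels, was at 70.0, 71.4 and 35.3 CPM in the mixed non-epithelial cluster 21, from 34, 8 and 10 UMIs, and at 0.30 to 0.99 CPM over whole libraries. *FZD6*, a receptor of the planar polarity branch, was at 10.8 to 13 CPM with overlapping intervals in anagen and telogen, and *FZD7* at 2.60, 4.25 and 1.86 CPM.

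In the R-spondin axis, *LGR5* was raised in clusters 3, 9 and 20 and *RSPO1* in clusters 1 and 22. *LGR5*, a receptor for R-spondins and a known marker of follicle stem cells, was in cluster 3 at 154 CPM (141 to 168) in anagen, 137 CPM (126 to 148) in catagen and 76.1 CPM (68.6 to 84.1) in telogen. That is 18.2, 11.5 and 14.9 times the level of the other cells, with 1 CPM added. In cluster 8, the other bulge and outer root sheath-like cluster, *LGR5* was at only 10.7, 9.74 and 4.82 CPM. Cluster 20 had 48.5, 107 and 51.6 CPM of *LGR5*, from 37 to 93 cells a library. Relative to the median gene of cluster 3, *LGR5* was at -0.20 (-0.37 to -0.03) for catagen over anagen and at -0.84 (-1.03 to -0.64) for telogen over anagen. The whole libraries ordered the stages otherwise, with *LGR5* at 13.2, 21.7 and 7.61 CPM and catagen highest. Cluster 3 held 5.93% of anagen, 15% of catagen and 6.26% of telogen cells. Its catagen cells had a median of 2153 UMIs, below the smallest kept anagen cell at 2404 UMIs, so these shares rest on unlike cell limits. They also depend on the integration. Clustered without it, the cluster matched to cluster 3 held 675 anagen, 537 catagen and 754 telogen cells, in place of 711, 1815 and 908. With the smallest anagen UMI total required in all libraries, the whole-library catagen over anagen ratio of *LGR5* went from 0.55 to 0.36. Thinned to 1500 UMIs, 18.7% (15.9 to 21.8) of 711 anagen, 17.5% (15.5 to 19.6) of 1338 catagen and 11.8% (9.65 to 14.2) of 815 telogen cells of cluster 3 had an *LGR5* UMI, and 40.8%, 22.4% and 27.2% did when not thinned. The thinned intervals of anagen and catagen overlap, and that of telogen lies below both. In cluster 5 the thinned share was 0.27% in anagen and 0 of 758 and 0 of 627 cells in the others. The thinning left out 477 catagen and 93 telogen cells of cluster 3.

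*LGR4*, the more widely expressed relative, was raised in no cluster. Among the clusters with at least 30 cells in every library it was highest in cluster 3 in anagen and in cluster 15 in catagen and telogen. In cluster 1, where *RSPO1* was raised, *LGR4* was at 6.96, 17.5 and 4.93 CPM, below its level over whole libraries. Over whole libraries it was at 10.3 CPM in anagen, 21.7 CPM in catagen and 6.84 CPM in telogen, with catagen over anagen above the median gene in 6 of 6 clusters (0.35 to 1.57) and telogen over catagen below it in 6 of 6 (-1.68 to -0.81). *RSPO1*, the one R-spondin with at least 100 UMIs, was in the upper follicle-like cluster 1 at 44.3, 24.0 and 49.6 CPM. A smaller cluster, the unnamed cluster 22 led by *MMP7* and *MGP*, had *RSPO1* at 81.6, 76.3 and 50.3 CPM. Both are apart from cluster 3, where *RSPO1* was at 0.312, 2.95 and 1.61 CPM. Summed over libraries *RSPO1* was at 5.55, 3.28 and 13 CPM, a telogen over anagen ratio of 1.40 (1.25 to 1.56), while within cluster 1 the same ratio was 0.20 (0.02 to 0.39). Cluster 1 held 9.38%, 7.05% and 14.6% of the cells. *RSPO3*, under the count limit with 8, 12 and 21 UMIs, had 6, 11 and 21 of those in cluster 21. *ZNRF3*, which the R-spondins act against and which canonical signalling induces, was at 12.4, 9.92 and 4.69 CPM over whole libraries.

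Of the secreted inhibitors, *SFRP1*, a WNT-binding protein, was raised in both bulge and outer root sheath-like clusters. In cluster 3 it was at 3385 CPM (3322 to 3449) in anagen, 1810 CPM (1771 to 1851) in catagen and 1599 CPM (1564 to 1634) in telogen. Cluster 8 had *SFRP1* at 1004, 844 and 610 CPM. In the inner root sheath-like cluster 11 it was at 46.2, 23.9 and 22.4 CPM. The anagen level in cluster 3 was thus above both others, and its ratio to the median gene was -0.93 (-0.97 to -0.89) for catagen over anagen and -0.90 (-0.94 to -0.86) for telogen over anagen. Over whole libraries the order was different, at 329, 388 and 255 CPM, but the catagen over anagen ratio was only 0.07 and depended on the processing. It was 0.24 without centring and 0.13 with the mean over cells. With the smallest anagen UMI total required in all libraries it was -0.07, and with clusters weighted alike -0.59.

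*WIF1*, which binds WNT ligands directly, was raised in the same clusters as *SFRP1*, 3 and 8, with another order of stages. In cluster 3 it was at 25.6 CPM (20.4 to 31.8) in anagen, 108 CPM (98.9 to 119) in catagen and 43.5 CPM (37.9 to 49.7) in telogen. In cluster 8 *WIF1* was at 22.2, 52.1 and 23.1 CPM, and in cluster 13 at 17.1, 33.0 and 15.9 CPM. Catagen was highest in all of these, with a catagen over anagen ratio of 2.06 (1.71 to 2.41) in cluster 3, 1.29 (0.85 to 1.75) in cluster 8 and 0.87 (0.34 to 1.42) in cluster 13. Over whole libraries this ratio of *WIF1* was 1.77, and 1.32 with the smallest anagen UMI total required in all libraries. With at least 1000 detected genes per cell it was 1.13. In the same cells of cluster 3, *SFRP1* was lower and *WIF1* higher in catagen than in anagen. *DKK3*, a divergent member of the Dickkopf family, was also raised in cluster 3, at 16.9, 28.2 and 33.2 CPM, with telogen highest.

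*NOTUM*, an enzyme that strips the lipid from WNT ligands and is itself induced by canonical signalling, was highest in cluster 13 in each library. There it was at 66.8 CPM (58.3 to 76.1) in anagen, 60.3 CPM (49.9 to 72.3) in catagen and 21.5 CPM (14.2 to 31.2) in telogen. In the mitotic-like cluster 4 *NOTUM* was at 27.2, 21.9 and 3.64 CPM. Telogen lay below both other libraries in each, with a telogen over anagen ratio of -1.40 (-2.03 to -0.82) in cluster 13 and -2.73 (-3.29 to -2.22) in cluster 4. In cluster 3 it was at 0.624, 0 and 0.201 CPM. Over whole libraries *NOTUM* was at 7.80, 4.89 and 1.11 CPM, and its telogen over anagen ratio of -2.63 (-2.93 to -2.35) was the lowest of the 34 members tested. *SFRP2* and *SFRP5* had 1.71 to 3.72 CPM and 0.912 to 2.09 CPM over whole libraries, with anagen highest for each. *DKK1*, *DKK2* and *SFRP4* had under 100 UMIs, and 5, 5 and 7 of the 11, 6 and 19 UMIs of *DKK2* came from cluster 21.

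**Figure D3:**
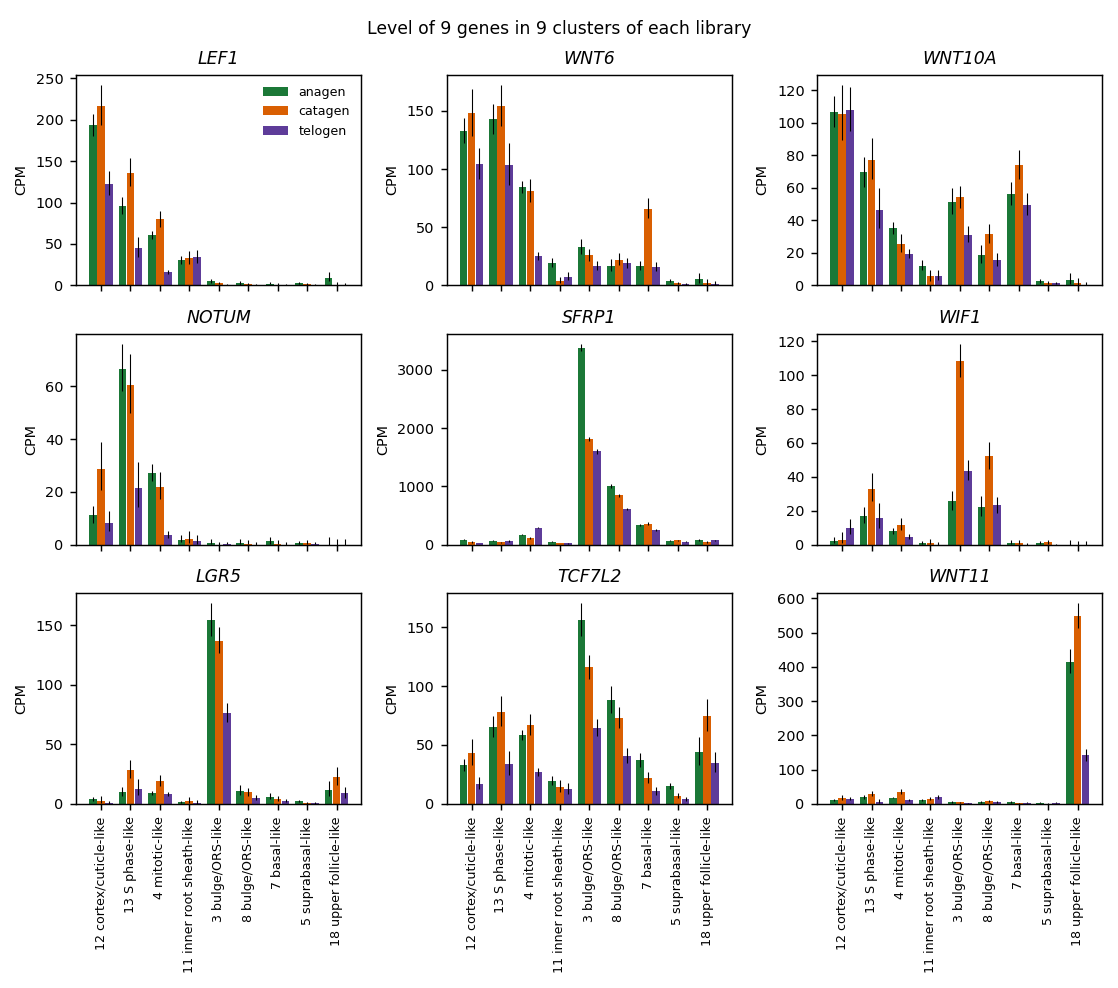
CPM of 9 members (panels, each with its own axis from 0) in 9 clusters of the anagen, catagen and telogen library, with exact 95% Poisson intervals as error bars. *LEF1* and *WNT6* are highest in clusters 12 and 13, *SFRP1*, *WIF1* and *LGR5* in cluster 3, and *WNT11* in cluster 18, where its telogen level of 142 CPM is the lowest of the 3.

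None of the cytoplasmic genes was raised in a cluster. *CTNNB1*, which encodes β-catenin, was at 74.2 CPM (72.3 to 76.0) in anagen, 84.5 CPM (82.0 to 87.0) in catagen and 46.5 CPM (45.2 to 47.8) in telogen. In the cortex and cuticle-like cluster 12 it was at 148, 218 and 82.5 CPM, and in the basal cluster 7 at 59.3, 45.1 and 28.2 CPM. Telogen over catagen was below the median gene for *CTNNB1* in 18 of 18 clusters (-1.42 to -0.12). *AXIN1*, the scaffold of the destruction complex, was ordered otherwise: it was at 33.7, 19.2 and 21 CPM, so that anagen was highest. Relative to the median gene *AXIN1* was lower in catagen than in anagen in 13 of 13 clusters (-1.61 to -0.13) and lower in telogen than in anagen in 15 of 15 (-0.90 to -0.08). *AXIN2*, a feedback target often read as a measure of canonical signalling, was sparse at 3.51, 3.12 and 1.61 CPM. In cluster 4 *AXIN2* was at 7.82, 6.13 and 2.46 CPM, and in cluster 13 at 7.18, 9.80 and 5.57 CPM, and it passed the limit for raised in neither.

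Of the transcription factors, *LEF1* was raised in clusters 4, 12 and 13, *TCF7L1* and *TCF7L2* in cluster 3 and in clusters outside both sets, and *TCF7* in none. *LEF1*, the partner of β-catenin known from the hair matrix, was in cluster 12 at 193 CPM (180 to 207) in anagen, 217 CPM (194 to 243) in catagen and 123 CPM (109 to 138) in telogen. In cluster 13 *LEF1* was at 96.1, 136 and 45.3 CPM, in cluster 4 at 60.7, 79.8 and 15.4 CPM, and in cluster 11 at 30.3, 33.4 and 34.1 CPM. In the basal cluster 7 it was at 2.11, 0.846 and 0.441 CPM, and in cluster 3 at 4.99, 2.27 and 0.201 CPM. The telogen over anagen ratio differed by compartment: it was 0.29 (-0.11 to 0.67) in cluster 11, -0.45 (-0.64 to -0.25) in cluster 12, -0.85 (-1.28 to -0.44) in cluster 13 and -1.81 (-2.08 to -1.55) in cluster 4. Over whole libraries *LEF1* was at 27.5, 19.1 and 6.32 CPM, a telogen over anagen ratio of -1.95 (-2.07 to -1.82).

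In cluster 4 the levels of *LEF1*, *WNT6*, *NOTUM* and *WNT5A* were all lower in telogen than in the other libraries. *SFRP1* was highest in telogen there, at 169 CPM in anagen, 112 CPM in catagen and 291 CPM in telogen. *KRT14*, a keratin of basal cells, was at 6614, 3890 and 20686 CPM in the same cluster and *DCN* at 140, 332 and 32.8 CPM. The dividing cells of the telogen library thus had more of a basal keratin, and the part of that in the members' levels was not tested. This was not particular to cluster 4: *KRT14* was also highest in telogen in other clusters, among them cluster 3 at 14809, 10944 and 22010 CPM.

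*TCF7L1* and *TCF7L2*, which act as repressors or activators with β-catenin, were raised with *LGR5* and *SFRP1* in cluster 3. *TCF7L1* was there at 88.0 CPM (78.0 to 98.9) in anagen, 53.6 CPM (47.0 to 60.9) in catagen and 37.4 CPM (32.2 to 43.2) in telogen. *TCF7L2* was at 156, 116 and 64.6 CPM in cluster 3, at 170, 267 and 71.0 CPM in cluster 20 and at 15, 6.49 and 3.77 CPM in cluster 5. For *TCF7L2* telogen over anagen lay below the median gene in 17 of 17 clusters (-1.84 to -0.27), all from the same pair of libraries. Over whole libraries *TCF7L2* was at 50.5, 53.3 and 23.6 CPM, a telogen over anagen ratio of -0.92 (-1.0 to -0.85). *TCF7* itself was at 1.40 to 1.67 CPM, with intervals that overlap in all 3 libraries.

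Because the make-up of the libraries differed, the stage ratios were also taken with each cluster given the same share of UMIs in every library, an alternative chosen after seeing the data. Shares of all genes past 2-fold with these weights are not given here. For telogen over anagen the members at least 2-fold lower were then 7 in place of 8. *LEF1* went from -1.95 to -1.0 and *NOTUM* from -2.63 to -1.72, and both stayed at least 2-fold lower. *WNT6* went to -0.64, *WNT10B* to -0.85 and *WNT5A* to -0.90, so none of these was then 2-fold lower, whereas *TCF7L2* and *WNT11* were, both at -1.07. *RSPO1* went from 1.40 to 0.50 and *DKK3* from 1.60 to 1.31. For telogen over catagen the 8 lower became 4 (*LGR4*, *NOTUM*, *WNT4* and *WNT16*), with *LEF1* at -0.89, *LGR5* at -0.67, *WIF1* at -0.92 and *WNT11* at -0.88. For catagen over anagen the 5 higher became 3 and the 3 lower became 4. There *WIF1* went from 1.77 to 1.26, *WNT16* from 1.49 to 1.28 and *LGR5* from 0.55 to -0.08.

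**Figure D4:**
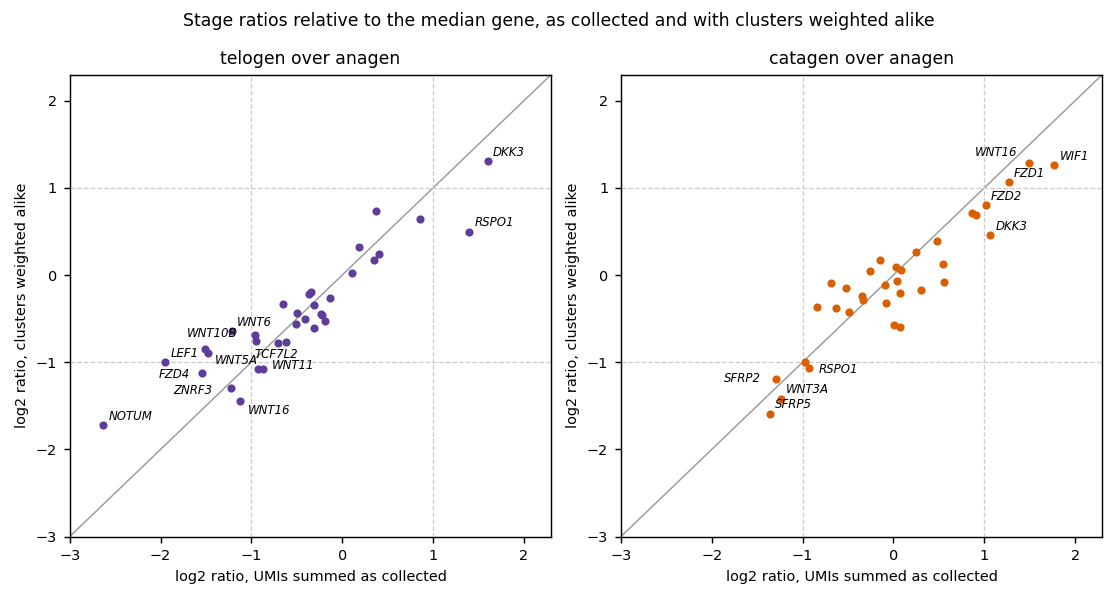
Log2 ratio of each member's CPM relative to the median gene, with UMIs summed as collected (horizontal) and with clusters weighted alike in every library (vertical), for telogen over anagen and catagen over anagen. Points are members, the solid line marks equal values and the dashed lines mark 2-fold. For telogen over anagen *LEF1*, *NOTUM* and *RSPO1* lie nearer to 0 on the vertical axis, while *WNT11* and *TCF7L2* lie farther from it.

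Of 54 other genes of the pathway, listed by role, 50 have a row and 43 had at least 100 UMIs, and 19 of these were raised in at least 1 cluster, against 32.5% of all genes. For telogen over anagen 5 of 43 were at least 2-fold lower and 2 higher, against 7.12% and 5.45%, and for catagen over anagen 1 of 41 was lower and 2 higher, against 5.89% and 5.63%. For telogen over catagen 4 of 40 were lower and 1 higher, against 8.34% and 9.58%. *NKD1* and *NKD2*, inhibitors of Dishevelled and NKD1 a feedback target, were raised in the inner root sheath-like cluster 11 at 39.4, 68.2 and 38.9 CPM and at 42.5, 61.5 and 35.3 CPM. *NKD1* was also raised in cluster 12 and *NKD2* in cluster 20. *TLE4*, a Groucho corepressor, was raised in cluster 12 at 53.4, 62.1 and 29.4 CPM. *TLE2*, of the same family, was raised in cluster 3 at 35.0, 41.8 and 20.9 CPM and also in cluster 20. *CTNNBIP1*, which keeps β-catenin from TCF, was raised in both suprabasal epidermis-like clusters, at 24.4, 88.9 and 65.1 CPM in cluster 16. *PRICKLE1*, of the planar polarity branch, was raised in 4 clusters, among them cluster 18 with *WNT11*, at 89.9, 106 and 30.6 CPM. *CCND1*, a target of canonical signalling among others, was at 61.5, 143 and 57.3 CPM over whole libraries. Its catagen over anagen ratio was 1.06 (1.01 to 1.11).

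The remaining genes named from that list had several roles. *TNFRSF19*, a membrane protein of follicle progenitors, was raised with *LEF1* in cluster 13 at 13.5, 37.7 and 10.3 CPM and in cluster 12 at 9.54, 21.6 and 10.4 CPM, with catagen highest in both. *DKKL1*, a relative of the Dickkopf proteins, was raised in clusters 4, 13 and 20, at 40.0, 31.3 and 24.6 CPM in cluster 4. *SOSTDC1*, an inhibitor of WNT and BMP ligands, was raised in the unnamed cluster 9, led by *TPM1*, at 4.58, 5.65 and 8.34 CPM. *WLS*, which carries WNT ligands to the cell surface, was raised in cluster 20 at 42.6, 74.5 and 41.9 CPM. *ROR2*, a receptor of the β-catenin-independent branch, was raised in cluster 12 at 5.22, 4.89 and 5.39 CPM. Over whole libraries it was at 1.5, 0.854 and 0.367 CPM, from 124, 44 and 38 UMIs. The levels in cluster 12 rest on a part of these UMIs, and whether they are alike was not tested. *VANGL1* and *CELSR1*, both of the planar polarity branch, were raised in cluster 15 and in cluster 12. *GPC3* and *ADGRA2*, membrane proteins that take part in WNT reception, were both raised in the non-epithelial cluster 21. *GPC3* was also raised in cluster 20 and *ADGRA2* in cluster 18. *PYGO1*, a nuclear partner of β-catenin, was raised in clusters 4 and 13.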

How the data were processed

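Hair follicle cells of Tianzhu white yak were measured with the 10x Genomics single cell 3′ v2 chemistry in 1 library each of anagen, catagen and telogen. The authors deposited UMI counts per gene and cell, made with Cell Ranger, which aligns reads with STAR. Versions 4.0.0 (anagen), 3.1.0 (catagen) and 6.0.2 (telogen) stand in the file headers and 2.1.1 in the submitters' processing notes, and the genome build is not given in the sources used here. Libraries counted with different versions may differ in which reads and cells were kept, and this cannot be told apart from stage. Columns of samples left out numbered 0.

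Stages were taken from the labels. A cell needed 200 detected genes, and 13, 62 and 71 cells of the anagen, catagen and telogen library failed this. Scrublet (scanpy 1.11.5) called 0 doublets in each library, which is not a working result, so doublets were left in, and an alternative left out the highest 5% of scores. Cells were clustered with Seurat 5.3.0 (R 4.3.3): 2000 variable genes per library, 1983 integration features after 17 members were taken out, anchors over the 3 libraries, 30 components, 20 neighbours and resolution 0.8. A cluster was named where at least 3 markers and at least 50% of the detected markers of a class were raised at least 1.5-fold (10 CPM added) and no other class had more markers among the 10 leading genes. Classes outside the epithelium also had to have *VIM* raised. This naming rule was chosen after the clusters had been seen. The pathway members, the other gene lists and the rules were chosen with earlier results of these data known.

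Members were given full values at 20 CPM or more in a library or 50 CPM or more in a named cluster of at least 50 cells, with *CTNNB1*, *LEF1*, *AXIN2* and *LGR5* always included. Of the other pathway genes, up to 3 a role were named among those past 2-fold or raised in a cluster.

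UMIs were summed per library, or per cluster and library, and scaled to CPM with exact Poisson intervals. Log2 ratios between stages were centred on the median of all genes with at least 100 UMIs over both libraries, with exact binomial intervals, and called at 2-fold. Shares of cells were given exact Clopper-Pearson intervals, and the limit of a count of 0 was 3 counts. The ratio step was checked on simulated counts with known changes before it was run. No p-value was computed, since there is 1 library per stage. Alternatives changed the scaling, gene and cell filters, doublets, fold, added CPM, resolution, integration and thinning. Other steps used Python 3.11.15, numpy 2.4.6, pandas 2.3.3 and scipy 1.17.1. Gene neighbours were taken by symbol from RefSeq's Bosgru_T2T1.0 annotation, in which 53 of 53 members matched.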

Additional observations from a re-analysis of the deposited data

Results flagged for a closer look

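In 4 cases a member differed between stages in opposite directions in 2 clusters, with intervals that do not overlap. The difference was not tested, since each stage has 1 library, and the pairs of clusters were picked for their distance. Relative to the median gene, *WNT6* for catagen over anagen was at 2.15 in the basal epidermis-like cluster 7 and at -2.43 in the inner root sheath-like cluster 11, where the catagen value rests on 8 UMIs. *FZD10* for catagen over anagen was at 1.59 in cluster 7 and at -1.47 in the suprabasal epidermis-like cluster 5. *SFRP1* for telogen over catagen was at 1.72 in the mitotic-like cluster 4 and at -2.27 in the upper follicle-like cluster 14. *TCF7L2* for catagen over anagen was at 1.96 in the sebaceous-like cluster 19, which had 53 catagen cells, and at -1.20 in cluster 5.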

How the results depend on the processing

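With 1 library per stage the spread between animals is unknown, the stages cannot be told apart from the animal, the library or the Cell Ranger version, and no library could be left out of a stage. No paired analysis was possible because each stage has 1 library. Under the alternatives, 95 counts of members stayed within 1.5 times the main count and 13 did not, and no called direction reversed. Shares of all genes under the alternatives are not given beside the counts below. For catagen over anagen, the 5 members higher became 3 with at least 1000 detected genes per cell, with the smallest anagen UMI total required of all cells, and with clusters weighted alike. The 3 lower became 5 with no gene filter and 3 UMIs added, and 8 at 1.5-fold. For telogen over anagen, the 8 lower became 15 at 1.5-fold, and the 2 higher became 1 with clusters weighted alike. For telogen over catagen, the 8 lower became 16 without centring, 17 at 1.5-fold and 4 with clusters weighted alike, and the 2 higher became 1 without centring and 1 with the mean over cells. The 10 members raised in cluster 3 became 5 at 3-fold, all among the 10, while the 3 of cluster 12 remained under each alternative run. Without integration, however, the cluster matched to cluster 12 held 1375 anagen, 230 catagen and 178 telogen cells, in place of 565, 238 and 174. Stage ratios within clusters 3 and 12 are given for the integrated clusters only. Leaving out cluster 2, a shallow cluster with 19.2% of telogen cells, moved 0 of 51 single values by more than their interval, as did leaving out the highest 5% of Scrublet scores. No centring moved 45 of 51, clusters weighted alike 36, no gene filter with 3 UMIs added 35 and the mean over cells 25. Cluster 2 left out and clusters weighted alike were chosen after seeing the data. Depth limits the 12 members under 100 UMIs and every ratio in the clusters of under 100 cells.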

Other observations

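Members under the count limit still had a place where their few UMIs fell together. *RSPO3*, a ligand of the LGR receptors known from dermal cells, had nearly all of its UMIs in the non-epithelial cluster 21, at 12.3 CPM in anagen, 98.2 CPM in catagen and 74.1 CPM in telogen. These levels rest on 6 of 8, 11 of 12 and 21 of 21 UMIs, from 101, 51 and 53 cells. Since the make-up of cluster 21 differed between libraries, the *RSPO3* levels are not compared between stages. *SFRP2* in the unnamed cluster 22 was at 62.4, 2.63 and 55.3 CPM, from 26, 1 and 33 UMIs, so that catagen stood apart in a cluster of 45 to 80 cells. In the neighbouring pairs *WNT1* with *WNT10B* and *WNT3* with *WNT9B*, *WNT1* and *WNT9B* are listed at 0 UMIs in all libraries.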
